A study of Mus musculus with 11 samples.

Results

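The Dlk1-Meg3 domain is an imprinted stretch of mouse chromosome 12, and its 6 long transcripts Dlk1, Meg3, Rtl1, Rian, Mirg and Dio3 were examined in every library of an RNA sequencing study of a Morc2a mutation. The 6 were taken by name from the 55487 gene rows of the deposited table, after their Ensembl identifiers had been matched to mouse symbols, and all 6 were found. Small RNA features of the domain were not among them. The domain was chosen by its FPKM differences between genotypes, with earlier results of the same values known. Differences between genotypes are therefore given below as descriptions without p-values, and tests are given for the difference between wild-type tissues and for genes outside the 6.

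Imprinted genes are transcribed mainly from the copy inherited from 1 parent. In this domain the noncoding RNAs Meg3, Rian and Mirg are known to come from the maternal chromosome, and the coding genes Dlk1, Rtl1 and Dio3 mainly from the paternal chromosome, under the control of a differentially methylated region upstream of Meg3. Meg3 is a long noncoding RNA retained largely in the nucleus, Rian is the host of a snoRNA cluster, and Mirg is the host of a microRNA cluster. DLK1 is a membrane protein with EGF-like repeats related to the Notch ligands, RTL1 is a protein derived from a retrotransposon gag and pol gene, and DIO3 is the deiodinase that inactivates thyroid hormone.

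The study sequenced total RNA of spinal cord and of fetal fibroblasts (MEF, primary cells from fetuses) of C57BL/6 mice. Mice heterozygous for Morc2a p.S87L gave 3 spinal cord and 2 MEF libraries, and wild-type (WT) mice gave 3 spinal cord and 3 MEF libraries. MORC2A is a chromatin-associated ATPase that acts with the HUSH silencing complex. The S87L mice carried 1 mutant and 1 normal Morc2a copy in every cell, and the labels name no other allele, treatment or age. The labels do not give the parent that transmitted the mutation, nor do they tie libraries to single animals or cultures, so p-values measure the spread between libraries only. Values are summed over both chromosomes, so neither the parental origin of a transcript nor the imprint itself was measured. Depth was 19.4 to 23.5 M reads in S87L cord, 15.4 to 19.0 M in WT cord, 12.1 to 14.5 M in S87L MEF and 14.3 to 15.1 M in WT MEF, recovered from the deposited values.

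Levels are in FPKM, fragments per kilobase of exon scaled for depth, with the kilobases counted over all annotated exons of a gene. On GRCm38, Dlk1 (ENSMUSG00000040856) lies at chr12:109452823-109463336 on the plus strand. Meg3 (ENSMUSG00000021268) lies at chr12:109541001-109571726 on the plus strand, 88.178 kb from the Dlk1 start, with 18089 bases of exon. Rtl1 (ENSMUSG00000085925) lies at chr12:109589193-109600330 on the minus strand. It is followed by Rian (ENSMUSG00000097451) at chr12:109603940-109661716 with 18234 bases of exon and by Mirg (ENSMUSG00000097391) at chr12:109729764-109749460 with 7292 bases of exon, both on the plus strand. Dio3 (ENSMUSG00000075707) lies at chr12:110279068-110281097 on the plus strand as 1 exon of 2030 bases, 826.245 kb from the Dlk1 start. No other long feature shares exon bases with any of the 6. Small RNA features do: 3 share exon bases with Meg3, 9 with Rian, 9 with Mirg and 7 with Rtl1, of which 6 are on the strand opposite to Rtl1. Whether counting used the strand is not stated in the labels, so reads from RNA antisense to Rtl1 may be counted in its values.

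The start regions of Meg3, Dlk1 and Dio3 are shown, for transcripts with genotype differences described below in cord (Meg3) and in MEF (Dlk1 and Dio3). Those of Mirg and Rian, also lower in S87L cord, were searched but are not shown. RefSeq start regions on GRCm38.p6, 250 bases before to 50 after the start site, were at hand for 5 of the 6, all but Rtl1. Meg3 had another region further downstream, chr12:109545148-109545447, which is not shown. Both strands were searched for TGCCGC, the core of the site bound by the imprint factor ZFP57, for TGACGTCA, the cAMP response element, and for TATAAA, the TATA box. Capitals mark the matches, and all 3 regions are written on the plus strand, in which these genes run.
Meg3, chr12:109540746-109541045: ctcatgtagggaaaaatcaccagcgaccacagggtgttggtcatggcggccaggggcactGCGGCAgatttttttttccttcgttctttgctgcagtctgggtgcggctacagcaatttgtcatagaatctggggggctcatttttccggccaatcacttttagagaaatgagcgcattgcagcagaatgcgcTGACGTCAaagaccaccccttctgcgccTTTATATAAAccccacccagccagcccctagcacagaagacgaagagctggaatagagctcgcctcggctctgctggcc
Dlk1, chr12:109452573-109452872: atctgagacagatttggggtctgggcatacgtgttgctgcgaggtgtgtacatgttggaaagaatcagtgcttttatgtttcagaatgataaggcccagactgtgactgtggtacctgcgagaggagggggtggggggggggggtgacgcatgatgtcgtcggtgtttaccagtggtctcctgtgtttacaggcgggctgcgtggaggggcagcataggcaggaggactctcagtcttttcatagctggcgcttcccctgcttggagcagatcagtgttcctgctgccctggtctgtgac
Dio3, chr12:110278980-110279279: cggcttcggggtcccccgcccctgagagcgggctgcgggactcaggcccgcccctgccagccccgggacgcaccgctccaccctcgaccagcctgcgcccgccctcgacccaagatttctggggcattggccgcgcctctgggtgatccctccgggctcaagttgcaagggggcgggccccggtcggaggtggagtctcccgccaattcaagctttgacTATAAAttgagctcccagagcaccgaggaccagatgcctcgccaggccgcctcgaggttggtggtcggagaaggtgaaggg

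The Meg3 region shown held TGACGTCA beginning 57 bases before the start site and TATAAA on both strands in overlapping letters. It also held TGCCGC on the minus strand, where it reads GCGGCA above. TGACGTCA was present in 1.79% of the 32851 start regions of full length, TATAAA in 13.6% and TGCCGC in 11.6%. The Dio3 region held TATAAA, and the Dlk1 region held none of the 3. The RefSeq start site of Dio3 lies downstream of the annotated start given above, 110279068. TATAAA, 31 bases before the RefSeq site, thus lies within the annotated exon. CpG dinucleotides numbered 13 in the Meg3 region shown, 9 in the Dlk1 region and 25 in the Dio3 region, against a median of 7 over all regions. The regions not shown, the downstream one of Meg3 and those of Mirg and Rian, held none of the 3 sequences. They had 1, 10 and 0 CpG, in that order. The Mirg region begins downstream of the Mirg start given above. A letter match is a description of this window and not a measured binding site.

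In spinal cord, Meg3 had the largest genotype difference of the 4 transcripts that could be fitted. It had 38.1, 38.4 and 38.6 FPKM in the S87L cords, against 93.9, 92.4 and 89.7 FPKM in the WT cords. All S87L cords were low, and the groups did not overlap. The means were 38.4 ± 0.281 FPKM in S87L cord and 92.0 ± 2.13 FPKM in WT cord (SD, n = 3 each), a log2 fold change of -1.25 (SE 0.03) on log2(FPKM + 0.5), the scale of every fold change here. These means rest on 42362 reads in the S87L and 79251 reads in the WT cords, and 0.773% of all genes tested in cord had a larger fold change in either direction. In bulk RNA, fewer cells of a type and less RNA per cell cannot be told apart.

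The other maternal RNAs also had lower values in S87L cord, by different amounts. Mirg had 1.003, 1.12 and 0.955 FPKM in S87L cords, against 2.29, 2.29 and 2.11 FPKM in WT cords (log2 fold change -0.84, SE 0.08). Rian, which lies between Meg3 and Mirg, had 10.6, 10.7 and 11.4 FPKM in S87L cords, against 12.5, 13.3 and 13.1 FPKM in WT cords (log2 fold change -0.25, SE 0.05). Neither pair of groups overlapped, but the Rian difference was a small one. In FPKM the means of S87L cord were 0.417 times those of WT cord for Meg3, 0.460 times for Mirg and 0.837 times for Rian. The size of the difference thus did not follow the order of the genes along the chromosome.

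The paternal genes differed among themselves in cord. Dlk1 had 11.8, 11.6 and 10.97 FPKM in S87L cords, against 11.1, 10.2 and 10.6 FPKM in WT cords, and the groups overlapped (log2 fold change 0.11, SE 0.05). Rtl1 was low throughout, with 0.416, 0.457 and 0.354 FPKM in S87L cords, against 0.486, 0.606 and 0.494 FPKM in WT cords. Every S87L cord was below every WT cord, but the whole of Rtl1 rested on 160 reads in S87L and 159 reads in WT cord, a ratio of 0.783 for equal depth (exact 95% interval 0.625 to 0.982, counting error only). Dio3 was near the limit of detection in cord, with 2 reads in all S87L cords together and 1 read in all WT cords together. Rtl1 and Dio3 did not reach the mean of 0.5 FPKM needed for the fit.

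Of the 4 transcripts fitted in cord, 3 were called lower at an adjusted p under 0.05 (limma, Benjamini-Hochberg) and none higher. Over all 15648 genes tested in cord, 12.9% were called in either direction, 5.17% higher and 7.71% lower, and 35.1% had groups that did not overlap. Because the domain was chosen with these differences known, nothing is read from the 3 beyond the description. The Rian call was lost without S87L cord 1, S87L cord 2, WT cord 2 or WT cord 3, with log2 fold changes of -0.23, -0.23, -0.23 and -0.24.

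**Figure D1:**
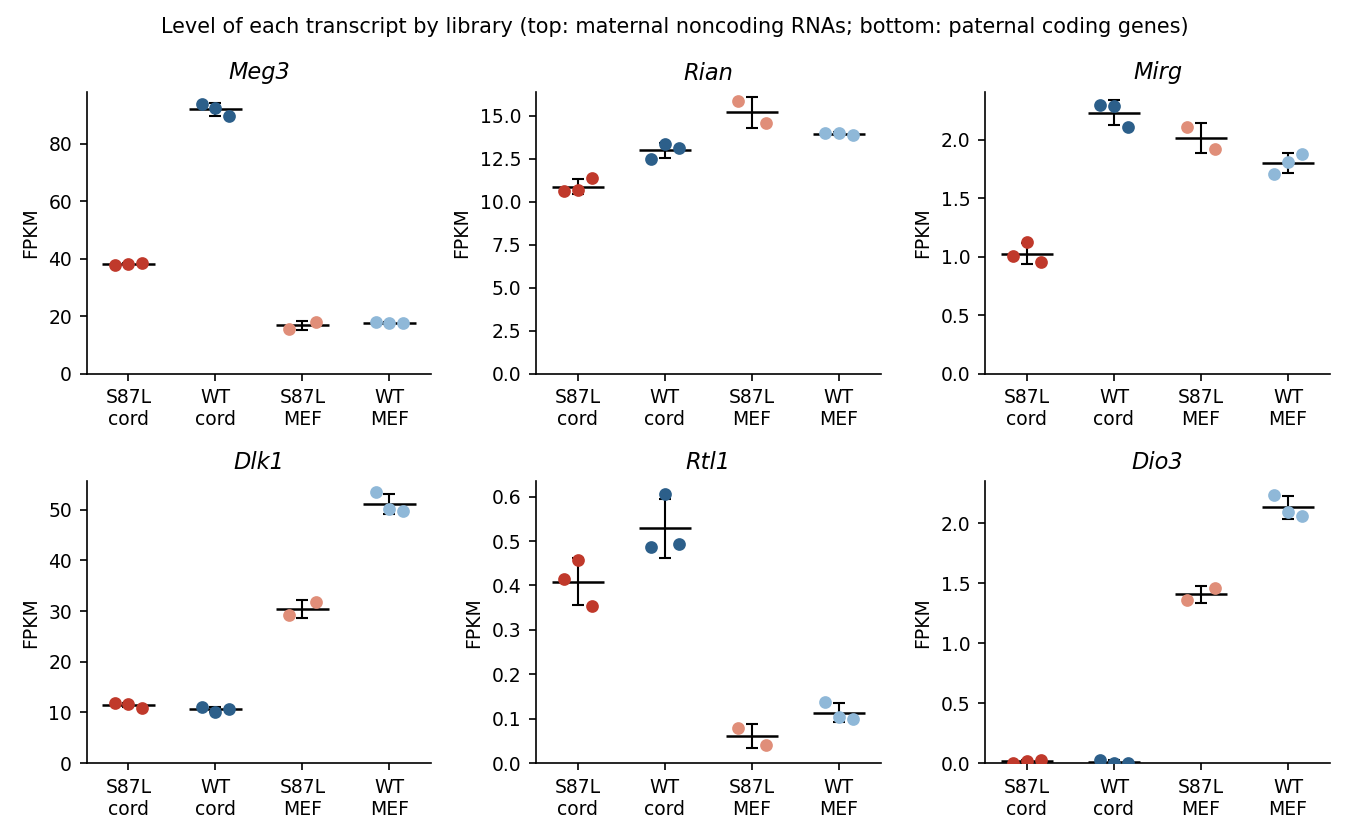
Level of each of the 6 transcripts in FPKM (vertical axes, linear, each panel with its own scale), by group; points are libraries, horizontal bars are means and error bars are SD. Meg3 and Mirg are low in all 3 S87L cords relative to WT cords, whereas Dlk1 and Dio3 are low in both S87L MEF libraries relative to WT MEF and Dio3 is near 0 in cord.

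In MEF the difference lay in the paternal genes instead. Dlk1 had 29.2 and 31.8 FPKM in S87L MEF, against 53.5, 50.2 and 49.7 FPKM in WT MEF (log2 fold change -0.74, SE 0.05). Both S87L libraries were low, with means of 30.5 ± 1.82 FPKM in S87L MEF (n = 2) and 51.1 ± 2.05 FPKM in WT MEF (n = 3). Dio3 had 1.36 and 1.46 FPKM in S87L MEF, against 2.24, 2.10 and 2.06 FPKM in WT MEF (log2 fold change -0.46, SE 0.08). Its groups did not overlap either, on 72 reads in S87L MEF and 180 reads in WT MEF, a ratio of 0.659 for equal depth (exact 95% interval 0.494 to 0.871, counting error only). Rtl1 gave 7 and 3 reads in S87L MEF, against 12, 9 and 9 reads in WT MEF. That ratio of 0.549 had an exact 95% interval of 0.240 to 1.15, so a difference was not detectable at this depth.

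The maternal RNAs differed little between the MEF genotypes. Meg3 had 15.8 and 18.0 FPKM in S87L MEF, against 18.1, 17.6 and 17.6 FPKM in WT MEF, and the groups overlapped (log2 fold change -0.07, SE 0.06). Without S87L MEF 1, the lower of the pair, the log2 fold change was 0.020, and without S87L MEF 2 it was -0.17. Rian had 15.8 and 14.5 FPKM in S87L MEF, against 14.0, 14.0 and 13.8 FPKM in WT MEF (log2 fold change 0.12, SE 0.05). Mirg had 2.11 and 1.92 FPKM in S87L MEF, against 1.71, 1.81 and 1.88 FPKM in WT MEF (log2 fold change 0.13, SE 0.09). For both of these RNAs the S87L libraries were the higher ones without overlap, opposite to cord, though neither was called.

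Of the 5 transcripts fitted in MEF, 2 were called lower, Dlk1 and Dio3, and none higher. Over all 13773 genes tested in MEF, 11.2% were called in either direction, 4.91% higher and 6.32% lower, and 45.8% had groups that did not overlap. The Dio3 call was lost without S87L MEF 1 or without any 1 of the WT MEF libraries, with log2 fold changes of -0.42 to -0.48. It was also lost, at -0.48, when the replicate number entered the fit as a block, which left 1 of the 5 called. The Dlk1 call held in each of these fits.

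**Figure D2:**
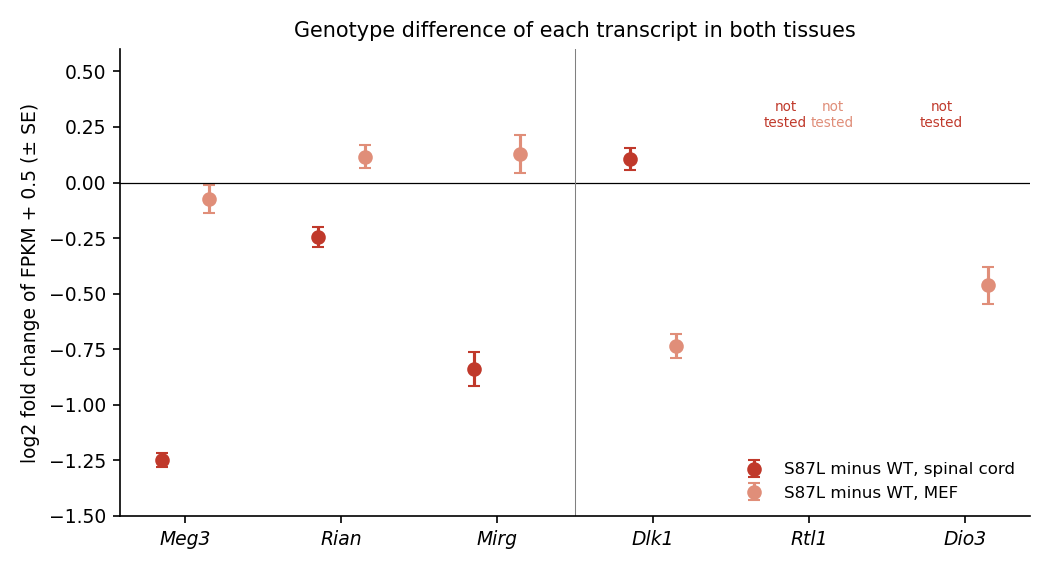
Log2 fold change of FPKM + 0.5, S87L minus WT, for each transcript (maternal RNAs left of the vertical line, paternal genes right of it), in spinal cord and MEF; bars are the moderated SE of limma. Meg3 is at -1.25 in cord and -0.07 in MEF, and Dlk1 at 0.11 in cord and -0.74 in MEF; Rtl1 in both tissues and Dio3 in cord were too low to be fitted.

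The difference between these genotype effects was taken as cord minus MEF in a fit of all 11 libraries. It was -1.18 (SE 0.07) for Meg3, -0.97 (SE 0.10) for Mirg and -0.36 (SE 0.07) for Rian. It was 0.84 (SE 0.07) for Dlk1 and 0.48 (SE 0.11) for Dio3, which passed the filter only through MEF and whose cord side rests on 3 reads. The maternal RNAs thus had negative and the paternal genes positive values. All 5 were called, against 13.1% of the 15811 genes tested, 6.98% higher and 6.14% lower. The Dio3 call was lost without S87L MEF 1, WT MEF 1 or WT MEF 2, with a pseudocount of 0.1 (log2 0.66) and with the replicate block (log2 0.50), and Dio3 was not tested with the filter at a mean FPKM of 1. These values are built from the same genotype contrasts and add no support to them.

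The make-up of the domain followed from these levels. Summed over the 6, S87L cords had 62.2 ± 0.213 FPKM and WT cords 118 ± 2.15 FPKM, and S87L MEF had 66.0 ± 2.44 FPKM and WT MEF 86.9 ± 2.39 FPKM (SD). The maternal RNAs together had 50.2 FPKM in S87L cord and 107 FPKM in WT cord, but 34.1 FPKM in S87L MEF and 33.5 FPKM in WT MEF. The paternal genes together had 11.9 FPKM in S87L cord and 11.2 FPKM in WT cord, but 31.9 FPKM in S87L MEF and 53.3 FPKM in WT MEF. Thus the cord sums differed on the maternal side and the MEF sums on the paternal side.

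Meg3 took 61.7% of the sum in S87L cord and 77.7% in WT cord, and 25.6% in S87L MEF and 20.5% in WT MEF. Dlk1 took 18.5% in S87L cord and 8.97% in WT cord, and 46.1% in S87L MEF and 58.8% in WT MEF. By reads not divided by exon length, Dlk1 took 6.72% in S87L cord and 3.03% in WT cord, and 22.3% in S87L MEF and 32.7% in WT MEF, where Meg3 then exceeded it at 36.4%. Within single libraries, the ratio of Meg3 to Dlk1 averaged 3.34 in S87L cords and 8.67 in WT cords, and 0.554 in S87L MEF and 0.348 in WT MEF. The ratio therefore differed in opposite directions in the tissues. Among the maternal RNAs, Meg3 to Rian averaged 3.53 in S87L cords and 7.09 in WT cords, whereas Mirg to Meg3 averaged 0.0268 in S87L cords and 0.0242 in WT cords. The ranges of Meg3 to Rian did not overlap between the genotypes, and those of Mirg to Meg3 did by a narrow margin, at 0.0247 to 0.0293 in S87L cords and 0.0235 to 0.0248 in WT cords.

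**Figure D3:**
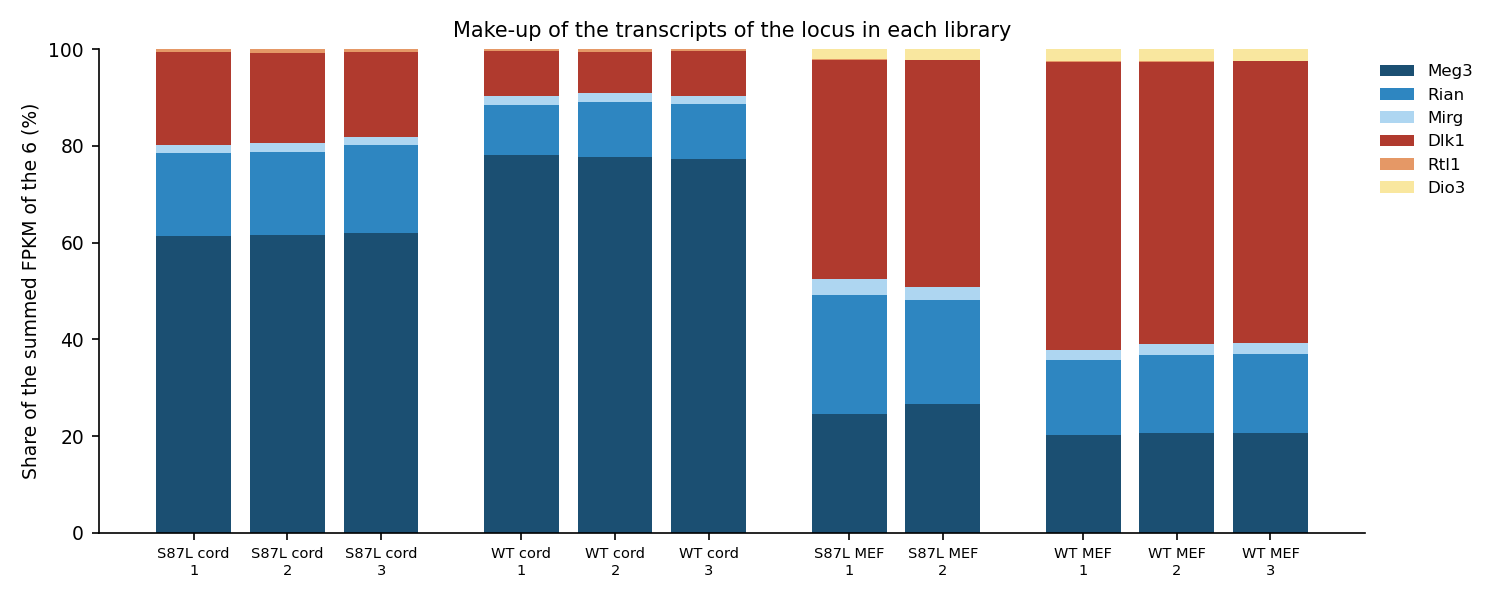
Share of the summed FPKM of the 6 transcripts (vertical axis, percent) in each of the 11 libraries; blue shades are the maternal RNAs and red to yellow shades the paternal genes. Meg3 takes 61.7% on average in S87L cords and 77.7% in WT cords, and Dlk1 takes 46.1% in S87L MEF and 58.8% in WT MEF.

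Where the domain is transcribed was tested between WT tissues, a contrast that the choice of genes did not use, although its WT libraries also serve in the genotype contrasts. Meg3 was higher in cord, with 92.0 FPKM in WT cord and 17.8 FPKM in WT MEF (log2 fold change 2.34, SE 0.03, limma adjusted p = 3.54e-10). Dlk1 was lower in cord, with 10.6 FPKM in WT cord and 51.1 FPKM in WT MEF (log2 fold change -2.21, SE 0.05, limma adjusted p = 2.88e-09). Dio3 had 1 read in the WT cords together and 180 reads in the WT MEF together. That was a rate 205 times lower in cord (exact 95% interval 36.4 to 8159, counting error only). Its fitted log2 fold change of -2.37 understates this because of the added 0.5. Dio3 passed the filter only through its MEF values, so its fit is a description and not a test. Rtl1, too low for the fit, had 159 reads in WT cord and 30 reads in WT MEF, a ratio of 4.64 for equal depth (exact 95% interval 3.13 to 7.11). By these values the paternal genes did not share a tissue: Dlk1 and Dio3 were higher in MEF, and Rtl1 in cord. The Rtl1 values may include reads from RNA antisense to it, so its own tissue difference is not settled.

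Mirg and Rian were nearly even between tissues. Mirg had 2.23 FPKM in WT cord and 1.80 FPKM in WT MEF (log2 fold change 0.25, SE 0.06, limma adjusted p = 0.00615), but quantile normalization turned the fold change to -0.23. Rian had 13.0 FPKM in WT cord and 13.9 FPKM in WT MEF (log2 fold change -0.10, SE 0.04, limma adjusted p = 0.0408), and this call was lost in 3 other settings and in 5 of the 6 fits that left out 1 library (adjusted p up to 0.101). All 5 fitted transcripts were called, 2 higher and 3 lower in cord. Dio3 is among the 3 lower, and its call is no test because it passed the filter only through MEF. Of the 15962 genes tested, 87.6% were called too, 47.4% higher and 40.3% lower, and 88.5% had groups that did not overlap. The median log2 fold change of all genes was 0.12, and it was -0.15 after quantile normalization, so values of this size carry no direction.

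Ordered by group mean, Meg3 was highest in WT cord, followed by S87L cord, WT MEF and S87L MEF, and the MEF genotypes overlapped. Mirg followed another order, WT cord, S87L MEF, WT MEF and S87L cord, with no overlap between neighbours. Rian was highest in S87L MEF, followed by WT MEF, WT cord and S87L cord, also with no overlap, but its means spanned only 10.9 to 15.2 FPKM. Dlk1 was highest in WT MEF, followed by S87L MEF, S87L cord and WT cord, and the cord genotypes overlapped. Dio3 had the same order as Dlk1, but its cord genotypes overlapped, on 2 reads in S87L and 1 read in WT cord. For Rtl1 the order was WT cord, S87L cord, WT MEF and S87L MEF. Over all genes tested, groups did not overlap for 88.5% between WT tissues, 35.1% between cord genotypes and 45.8% between MEF genotypes. The WT tissue differences of Mirg and Rian carry no direction, as stated above, so nothing is read from their order between tissues.

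Calls in the flanks of the domain are set beside the shares called over all genes tested, 12.9% in cord and 11.2% in MEF. All adjusted p-values from here on are limma's. Of 22 protein-coding genes within 1 Mb outside Dlk1 or Dio3, 20 were tested in cord, with 1 called higher and 2 lower and a median log2 fold change of 0.05, against -0.02 over all genes. Hsp90aa1, a cytosolic chaperone, was higher in S87L cord by 0.20 (adjusted p = 0.0145), Dync1h1, the dynein heavy chain, was lower, at -0.24 (adjusted p = 0.00686), and Amn, the cubilin partner amnionless, was at -0.82 (adjusted p = 0.0386). In MEF 17 were tested and Hsp90aa1 was called higher at 0.28 (adjusted p = 0.0118), with a median of -0.05 over the 17. The 8 neighbours on the Dlk1 side had no call in cord and 2 with an unadjusted p under 0.05. The 12 tested on the Dio3 side held all the cord calls and 6 with an unadjusted p under 0.05.

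Within the domain, 16 other long features are annotated, and none passed the filter in cord. Gm37899 and Gm3379 passed in MEF and were not called there. Gm37899, which starts 216.046 kb from the Dlk1 start between Rian and Mirg, had 0.127 ± 0.040 FPKM in S87L cord and 0.39 ± 0.022 FPKM in WT cord (SD, n = 3 each). B830012L14Rik, chosen after its values were seen, had 0.134 ± 0.038 FPKM in S87L cord and 0.570 ± 0.062 FPKM in WT cord. The 67 microRNA features of the domain together had 69 to 81 reads per library in S87L cord and 179 to 269 in WT cord, and 35 to 36 in S87L MEF and 55 to 70 in WT MEF. These reads are not scaled for depth. In cord 24 of the 42 tested were called lower and none higher (median log2 fold change -1.42). Over all microRNA features tested in cord, these included, 49 of 175 were lower and none higher (median -0.83). How reads in exon bases shared with a host transcript were counted is not stated in the labels.

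**Figure D4:**
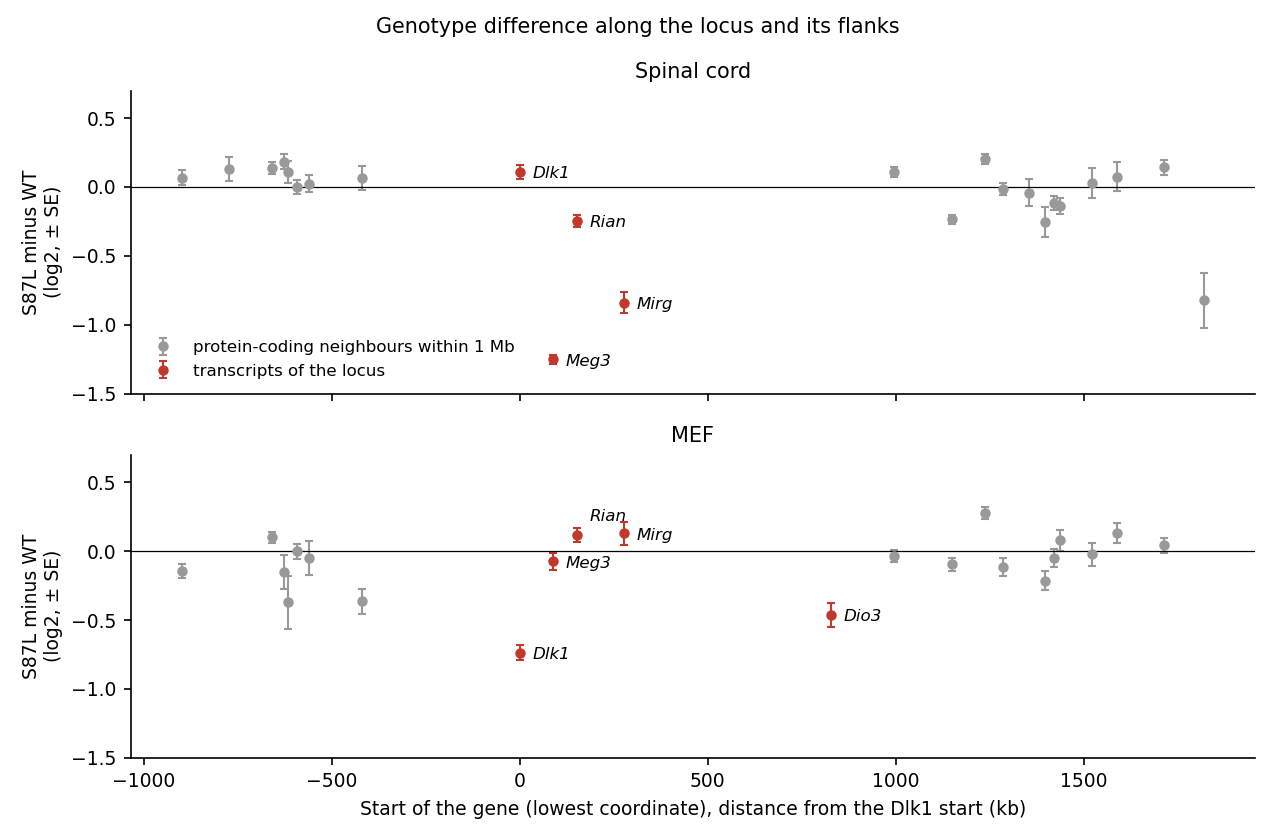
Log2 fold change, S87L minus WT, of those of the 6 transcripts that could be fitted (red) and of protein-coding genes within 1 Mb of the domain (grey), against the distance of the gene from the Dlk1 start in kilobases; bars are SE, the upper panel is cord and the lower panel MEF. In cord Meg3 at -1.25 and Mirg at -0.84 lie below all tested neighbours, of which Amn at -0.82 is the closest, and in MEF Dlk1 at -0.74 lies below all tested neighbours.

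Genes that keep imprints and DNA methylation were counted next, from a list of 16. In cord 12 were tested, with none called higher and 3 lower: Zfp445, a zinc finger protein of imprint maintenance (log2 fold change -0.31, adjusted p = 0.0101), the methyltransferase Dnmt3a (-0.25, adjusted p = 0.0180) and the demethylation enzyme Tet2 (-0.36, adjusted p = 0.0212). The list had a median of -0.20 in cord, against -0.02 over all genes, and of -0.15 in MEF, against -0.01. For this and the lists below, the shares over all genes in cord were 5.17% higher and 7.71% lower. In MEF they were 4.91% higher and 6.32% lower. In MEF 4 of 14 were lower and none higher, among them Dnmt3a (-0.37, adjusted p = 0.0105), Aff3, known in mouse stem cells to bind the imprinting control region of this domain (-0.43, adjusted p = 0.0158), and the maintenance methyltransferase Dnmt1 (-0.19, adjusted p = 0.0290). Zfp57, the other main zinc finger protein of imprint maintenance, had 0.601 ± 0.068 FPKM in S87L cord and 0.876 ± 0.088 FPKM in WT cord and was not called (adjusted p = 0.0860). Of 12 subunits of Polycomb repressive complex 2, which deposits a repressive histone mark, 11 were tested in cord and none was called (3 at an unadjusted p under 0.05). In MEF 2 of 12 were higher, Suz12 by 0.35 (adjusted p = 0.0223) and Epop by 0.29 (adjusted p = 0.0384).

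Notch genes were counted because DLK1 is related to the Notch ligands. In cord 3 of 20 were lower and none higher, Dll3 (-0.56), Hey2 (-0.30) and Jag2 (-0.26), with adjusted p of 0.0197 to 0.0391. The Notch list had a median of -0.17 in cord and -0.20 in MEF, against -0.02 and -0.01 over all genes. In MEF 5 of 14 were lower and 1 higher. The Notch target genes Hey1 (1.80 ± 0.127 FPKM in S87L MEF and 4.39 ± 0.444 FPKM in WT MEF, adjusted p = 0.00205) and Heyl (-1.20, adjusted p = 0.00306) and the receptor Notch3 (-0.54, adjusted p = 0.00233) were lower. Rbpj, the DNA-binding partner of Notch, was higher by 0.39 (adjusted p = 0.0106). A relation of these genes to Dlk1 was not tested.

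Thyroid hormone genes were counted because DIO3 inactivates the hormone. The list had a median of 0.13 in cord and -0.08 in MEF, against -0.02 and -0.01 over all genes. In cord 4 of 10 were higher and none lower. Dio2, the deiodinase that activates the hormone, had 12.9 ± 0.550 FPKM in S87L cord and 6.52 ± 0.222 FPKM in WT cord (log2 fold change 0.93, adjusted p = 8.71e-05). The hormone-responsive genes Hr and Klf9 were higher by 0.71 (adjusted p = 0.000635) and 0.44 (adjusted p = 0.000403). In MEF 3 of 8 were lower and none higher: Hr at -1.10 (adjusted p = 0.00130), the receptor Thra at -0.56 (adjusted p = 0.00223) and Rxra, its dimer partner, at -0.22 (adjusted p = 0.0269). A relation of these genes to Dio3 was not tested.

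Meg3 was not the only nuclear RNA with a lower level in S87L cord. Of 8 nuclear or long noncoding RNAs, a list chosen with their values known and so no independent evidence of direction, 7 were tested in cord and 5 were lower and none higher (median -0.75). Malat1 had 170 ± 7.63 FPKM in S87L cord and 286 ± 7.93 FPKM in WT cord, and Snhg11 had 26.9 ± 0.635 FPKM in S87L cord and 58.4 ± 1.56 FPKM in WT cord. In MEF 1 of 4 was lower, Pantr1, and Malat1 had 209 ± 5.75 FPKM in S87L MEF and 197 ± 2.68 FPKM in WT MEF. By type of feature in cord, 94 of 1018 long noncoding RNAs were lower and 19 higher, with a median of -0.05, and 964 of 13177 protein-coding genes were lower and 763 higher, with a median of -0.02. The part of RNA quality or of library making in the Meg3 and Mirg values was not tested.

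The genes most like each transcript over the 11 libraries were found by the root mean square difference between log2(FPKM + 0.5) profiles centred within each tissue, among 10914 genes outside the domain. Centring keeps the genotype differences by which the domain was chosen, so like genes share them by construction and add no support. For scale, the root mean square of the transcript's own centred profile was 0.465 for Meg3, 0.317 for Mirg, 0.106 for Rian and 0.252 for Dlk1. Meg3 was most like Hoxa9 (0.0999), Hoxd9 (0.159) and Hoxc9 (0.160), homeobox genes of the trunk. Hoxa9 had 2.91 FPKM in S87L cord and 7.28 FPKM in WT cord, and 2.19 FPKM in S87L MEF and 2.249 FPKM in WT MEF. Mirg was most like Neat1 (0.0583), Col11a1 (0.0668) and Malat1 (0.0731). Rian was most like the imprinted gene Peg3 (0.0204) and Mdm4 (0.0225). Dlk1 was most like Gas6 (0.0294), Zfp423 (0.0418) and Adcy5 (0.0450), and Gas6, a ligand of TAM receptors, had 70.5 FPKM in S87L MEF and 116 FPKM in WT MEF.

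Markers of cell types followed the labelled tissues: all 12 neuron, 7 oligodendrocyte and 6 astrocyte markers were higher in WT cord than in WT MEF, and all 7 fibroblast markers were lower. Some marker lists also differed between genotypes. All 11 skeletal muscle markers were higher in S87L cord, summing to 81.2 to 87.7 FPKM in S87L cords and 17.2 to 22.2 FPKM in WT cords, and 6 of 7 fibroblast and meninges markers were higher, at 45.7 to 47.2 FPKM in S87L cords and 24.5 to 25.6 FPKM in WT cords, with no marker of either list at 0. None of 5 endothelial markers was called in cord (2 at an unadjusted p under 0.05). Higher too were 3 of 4 Schwann cell, 3 of 6 microglia and 3 of 5 red blood cell markers, while 1 of 6 astrocyte and 1 of 7 oligodendrocyte markers were called in each direction and 2 of 4 ependyma markers were lower. Neuron markers summed to 1876 to 1902 FPKM in S87L cords and 1923 to 1938 FPKM in WT cords, with 3 of 12 lower, while none of 7 motor neuron markers was called (2 at an unadjusted p under 0.05). In MEF 3 of 7 fibroblast markers were lower, at 3255 to 3520 FPKM in S87L MEF and 3771 to 3791 FPKM in WT MEF, and none was at 0. Also lower in S87L MEF were 2 of 3 Schwann cell markers (57.5 to 59.2 FPKM in S87L MEF and 72.9 to 78.4 FPKM in WT MEF), 2 of 6 microglia markers (90.9 to 96.3 FPKM in S87L MEF and 114 to 115 FPKM in WT MEF), 1 of 2 endothelial and 1 of 3 motor neuron markers. Of 3 neuron markers tested in MEF, 2 were higher (36.7 to 39.3 FPKM for the whole list in S87L MEF and 30.7 to 32.5 FPKM in WT MEF), and 1 of 3 astrocyte and 1 of 2 skeletal muscle markers were called in each direction. The part of cell make-up in the values of the 6 transcripts was not tested.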

How the data were processed

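RNA of 11 libraries was sequenced after TRIzol extraction and a strand-specific library kit, per the labels' protocols. The authors deposited FPKM values per Ensembl gene. HTSeq 0.11.3, Picard 2.25.5, HISAT2 2.2.1 and Trimmomatic 0.39, with build GRCm38, were used per the submitters' processing notes. Not given in the sources used here are the annotation release, any poly(A) or ribosomal RNA step and the use of strand in counting. Symbols and exon lengths came from GENCODE of GRCm38, in which 55227 identifiers were found. Deposited values moved in steps of 1 read over these lengths, which gave reads for 98.5% to 98.6% of values within 0.05 of a whole number, used as a description only. Groups came from the library titles.

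Fits used limma 3.58.1 in R 4.3.3 (trend, robust) on log2(FPKM + 0.5), keeping genes whose mean FPKM in the fitted libraries reached 0.5, with Benjamini-Hochberg adjustment over all genes and calls at an adjusted p under 0.05. Each genotype contrast used its tissue alone. SE is limma's moderated SE. The fit was tested on simulated data. The 6 genes and all lists (imprint maintenance, Polycomb repressive complex 2, Notch, thyroid hormone, nuclear noncoding RNAs and cell type markers) were chosen with earlier results of these data known. Named were the 6, other long features of the domain and flanking genes that passed the filter and were called, up to 3 called genes of smallest p per list and comparison, and the 3 most like genes, of which 1 is not reported here. Exact intervals of read ratios are conditional binomial at 95%. Alternatives were other pseudocounts (0.1 and 1), filters, scalings, a replicate block, a joint fit and leaving out each library. Same-numbered libraries did not deviate together in every pair, so the numbers were not taken as pairs.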

Additional observations from a re-analysis of the deposited data

Results flagged for a closer look

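The genotype effect was called different between tissues for each of the 5 transcripts of the domain that could be fitted. The call was by the interaction term of the limma fit of all 11 libraries. Cord minus MEF was -1.18 on the log2 scale for Meg3, -0.97 for Mirg, -0.36 for Rian, 0.84 for Dlk1 and 0.48 for Dio3. Dio3 passed the filter only through MEF, and its cord side rests on 2 reads in S87L and 1 read in WT cord. The Dio3 call was lost in 5 of the refits. In cord all 3 S87L libraries were below all WT libraries for Meg3, Mirg and Rian. In MEF both S87L libraries were below all WT libraries for Dlk1 and Dio3. Over all genes tested, groups did not overlap for 35.1% in cord and 45.8% in MEF, and 13.1% were called by the interaction term. The domain was chosen with differences of these contrasts known, so the flags describe it and do not test it. No group was large enough for a search for outlying libraries.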

How the results depend on the processing

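Of 299 recomputed fold changes of the 6 transcripts, 275 kept their direction and their side of the threshold, 22 lost their call and 2 turned. Those that turned were Meg3 in MEF without S87L MEF 1 (-0.17 to 0.020 over the libraries left out in turn) and Mirg between WT tissues with quantile normalization (-0.23), which left 1 transcript called higher there. In cord 809 genes were higher and 1207 lower, and 1023 and 993 with median ratio scaling. Leaving out 1 cord library gave 344 to 758 higher and 494 to 879 lower genes, with 2 to 3 of the 6 called lower, and only leaving out WT cord 1 kept both gene counts within 1.5 times. In MEF 676 genes were higher and 871 lower. The counts were 327 and 461 with no filter, 1040 higher in the fit of all 11 libraries, and 202 to 829 and 363 to 924 when 1 library was left out, with 1 to 2 of the 6 called lower, and only leaving out S87L MEF 2 kept both gene counts within 1.5 times. Where 1 S87L MEF library remained, it was assumed to vary like the others. With the replicate block 53 MEF genes were higher and 129 lower and 1 transcript was called, and in the difference between tissues 633 genes were higher and 397 lower, against 1104 and 971, with 1 transcript called higher. That transcript count was also 1, for Dlk1 without Dio3, with a pseudocount of 0.1 or a filter at a mean FPKM of 1, and 1 to 2 when 1 library was left out. Lower genes in the difference numbered 554 (without S87L MEF 1) to 1040 when 1 library was left out. The causes were not tested.

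Same-numbered libraries correlated at 0.23, -0.21 and 0.30 in their deviations between the cord genotypes and at -0.16 and -0.15 between the MEF genotypes, so they share only a number. The block ended the Dio3 calls in MEF and in the difference between genotype effects and the Rian call between WT tissues, and no other call of the 6. A filter at a mean of 20 reads, chosen after seeing the data, changed no call of the 6. Count-based tests listed as alternatives (edgeR, DESeq2) were not run, since the deposited unit is FPKM. Depth limits Rtl1 and, in cord, Dio3.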
